A study of Mus musculus with 25 samples.

Results

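The complement and coagulation factors of mouse liver were described with a list of 48 gene symbols. The list holds 24 complement genes, 13 coagulation genes, 3 fibrinolysis genes and 8 inhibitors or modulators of clotting. Symbols were matched to the Ensembl identifiers of the count files, and 47 of 48 had one among the 41388 identifiers. No identifier carried the symbol Klkb1 (plasma kallikrein), so no value is given for it. All 47 passed the filter on low counts and were tested among 14065 genes. Levels are given in CPM, a count scaled to a common library size. Cfd and Plat exceeded 1 CPM in 0 of 3 chow libraries and passed through the Western diet groups. The list applied no threshold to measured values.

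Liver RNA was sequenced from 25 male C57B/6J mice with an age of 20 weeks, after a study length of 12 weeks. In 3 groups the mice were WT, meaning littermates with floxed Sirt1 and no Cre. Chow WT EV (n = 3) ate chow and was injected with AAV8 carrying no insert, the empty vector (EV). WD WT EV (n = 6) ate a Western diet (WD) with the same vector, and WD WT NAMPT (n = 6) ate it with a vector for NAMPT, an enzyme of NAD synthesis. The other groups were labelled LKO, in which albumin-driven Cre removed Sirt1, an NAD-dependent deacetylase, from hepatocytes. They were WD LKO EV (n = 5) and WD LKO NAMPT (n = 5), both on the Western diet. The thyroxine binding globulin promoter drove the vector in hepatocytes, so every group carried a virus and no group was free of it. No LKO group ate chow, and no chow group received NAMPT. One label names the insert as SIRT1, while each title names NAMPT, and the titles were followed.

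Library totals ran from 20166175 to 32937326 counts. The RNA of the 2 targeted genes passed no test between the groups. In WD LKO EV Sirt1 was at 8.56 ± 1.33 CPM (SD, n = 5), and in WD WT EV at 8.84 ± 0.572 CPM (n = 6), an adjusted p of 0.99. With NAMPT it was at 9.81 ± 1.36 CPM in LKO (n = 5) and 8.57 ± 0.616 CPM in WT (n = 6), the reverse order (adjusted p = 0.237). With the NAMPT vector, WT livers had 59.4 ± 10.6 CPM of Nampt, against 47.3 ± 6.45 CPM with EV, an adjusted p of 0.144. A count over the whole gene does not show a deleted exon, and LKO and NAMPT below mean the libraries labelled so. The 8 hepatocyte markers, Alb, Ttr and Apoa1 among them, summed to between 52638 and 86246 CPM in all 25 libraries. WD WT NAMPT replicates 2 and 6 and WD LKO NAMPT replicate 3 had low quality weights in the fit, at 0.401, 0.336 and 0.410. WD WT NAMPT replicate 2 also had a scaling factor of 1.29. Chow replicates 1, 2 and 3 had weights of 1.805, 2.504 and 0.6081, and that of replicate 2 was the highest of all 25.

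Complement is a chain of plasma proteins in which C1q or the lectins recognize a target, C3 is cleaved and deposited on it, and C5 to C9 assemble a pore. Clotting ends when thrombin, made from prothrombin, turns fibrinogen into fibrin, and plasmin later dissolves it. Hepatocytes make most of these proteins. C1q, properdin and the receptors of the cleavage fragments C3a and C5a come mainly from macrophages and other myeloid cells, and factor D comes largely from fat. In liver homogenate, fewer cells of a type and less RNA per cell cannot be told apart.

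The 47 genes made up 3.51, 3.71 and 4.48% of all counts in the 3 chow libraries. Their share in WD WT EV had a lowest value of 2.43%, a median of 2.71% and a highest value of 3.48%, so all 6 libraries lay below every chow library. In WD WT NAMPT the share ran from 2.74 to 3.62% with a median of 3.34%. Both LKO groups stayed below the chow libraries, with medians of 2.78% in WD LKO EV and 2.84% in WD LKO NAMPT.

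Per kilobase of exon, the fibrinogen chains Fgb and Fgg, then C3, Vtn (vitronectin) and Fga led the order in chow. Fgb was at 2078 ± 513 CPM per kb (SD, n = 3), Fgg at 1728 ± 348, C3 at 1655 ± 464, Vtn at 1180 ± 127 and Fga at 1119 ± 233. The mean ± SD intervals of Fgb, Fgg and C3 overlapped, and so did those of Vtn and Fga. In WD WT EV (n = 6) the first 3 were Fgb, Fgg and Fga, and C3 had moved from rank 3 to rank 4. The C1q chains came at ranks 35 to 37 of 47 in chow, at 27.4 to 37.4 CPM per kb. C3ar1, Plau and Plat, all under 2 CPM per kb, were near the end of the order.

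**Figure D1:**
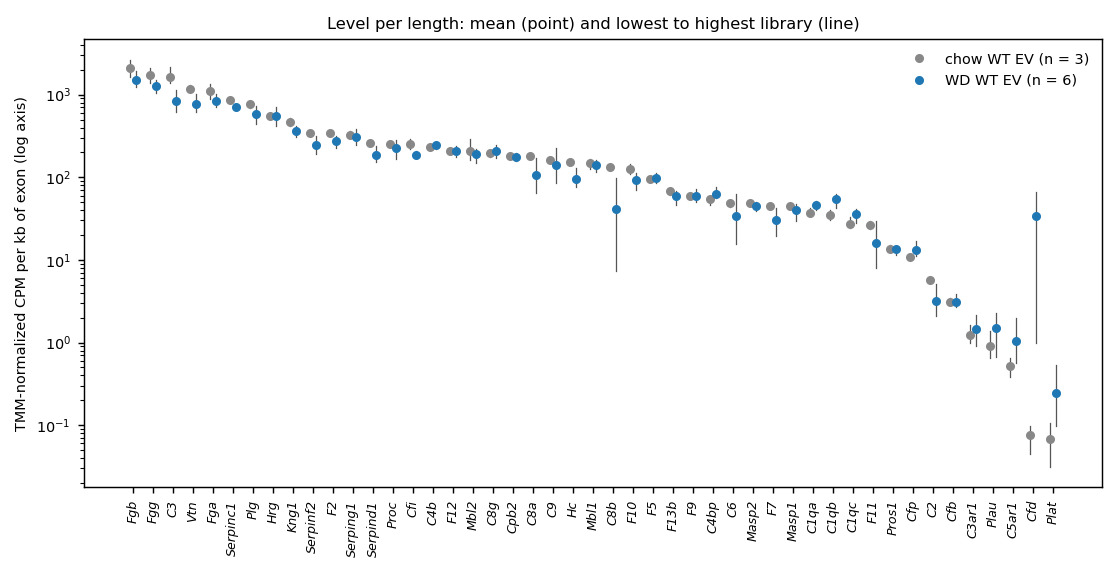
Mean level of each of the 47 genes per kilobase of exon on a log axis, in the order of chow WT EV (n = 3), with WD WT EV (n = 6) beside it. Fgb, Fgg and C3 stand first and Plat is near the bottom, and C3 drops below Fga on the Western diet.

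Western diet was compared with chow in WT mice carrying the empty vector. The members that changed were mostly lower: 19 of 47 were called lower and 2 higher, and 26 were not called, Cfd and Plat among them. That is 40.4% lower and 4.26% higher. Over all 14065 genes, 12% were called lower and 10.1% higher in the same fit. The median log2 fold change was -0.18 over the members and 0 over all genes. Of the lower members, 7 were complement genes, 7 coagulation genes, 1 a fibrinolysis gene and 4 inhibitors or modulators. The count was 5 without chow replicate 2, 12 without chow replicate 1, 10 with the edgeR quasi-likelihood test and 9 without quality weights. The 10 include Cfd, whose diet test is not read as a result, since it passed the filter only through the Western diet groups. The calls over all genes in these fits are not set beside the counts, so a fall particular to the members is not shown. C2, C3, Hc and C8a were lower in every fit that left out a library and in all 7 other settings.

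C8b, the beta chain of the pore component C8, had the largest drop. It was at 316, 334 and 367 CPM in chow, and at 18.7 (lowest), 90.5 (median) and 248 CPM (highest) in WD WT EV. All 6 Western diet libraries lay below the 3 chow libraries, and they spread over more than a 10-fold range. The log2 fold change was -2.12 ± 0.45 (SE), with an adjusted p of 0.00167.

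C8a, the alpha chain, is the neighbor of C8b on chromosome 4. It fell less, from 635, 636 and 709 CPM to 234 (lowest), 379 (median) and 628 CPM (highest), again without overlap. Its log2 fold change was -0.80 ± 0.16 (adjusted p = 0.00118). C8g, the gamma chain, was at 260 to 314 CPM in chow and 253 to 363 CPM in WD WT EV, with a log2 fold change of 0.05 ± 0.14 (adjusted p = 0.83). Per length, C8a over C8b was 1.36 ± 0.0388 (SD, n = 3) in chow and 4.12 ± 2.72 (n = 6) in WD WT EV. An exact two-sided permutation test of the log2 ratio gave p = 0.0238, the smallest possible with 3 against 6, and 0.0357 after adjustment over 6 chain ratios that were chosen after the values were seen. C8a over C8b was also above the chow range in every other Western diet library, from 1.78 to 5.67.

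Hc, the mouse gene for C5, is cleaved to give C5a and the start of the pore. Its chow values were 914, 961 and 1006 CPM, against 483, 586 and 814 CPM as lowest, median and highest in WD WT EV. No library overlapped between the groups. The log2 fold change was -0.67 ± 0.11 (adjusted p = 0.000195), which was the smallest adjusted p of the 47 genes. C6, the next pore component, went from 178, 197 and 217 CPM to 63.5, 135 and 250 CPM, and its groups overlapped (log2 fold change -0.68 ± 0.22, adjusted p = 0.03). The C6 call was lost in 5 of 7 other settings and in 4 of 9 fits that left out 1 library. C9, which polymerizes into the ring of the pore, was at 414 to 422 CPM and 215 to 573 CPM and was not called (-0.30 ± 0.17, adjusted p = 0.205).

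C3, the protein on which all pathways converge, was at 7107, 7166 and 11268 CPM in chow. In WD WT EV it was at 3198 (lowest), 4326 (median) and 5787 CPM (highest). All 6 WD WT EV libraries lay below every chow library, and chow replicate 3 was the highest of all 25. The log2 fold change was -0.85 ± 0.17 (adjusted p = 0.000942), a 1.80-fold lower level. C2, the protease partner of C4b, fell from 21, 21.8 and 22.8 CPM to 8.19, 11.2 and 20.0 CPM, also without overlap. Its log2 fold change was -0.90 ± 0.17 (adjusted p = 0.000458). C2 shares 1817 of its 3872 exonic bases with an annotated transcript on the same strand (Gm20547) or with Zbtb12 on the other, so its counts are uncertain. Cfb (factor B) shares 2246 of 2825 bases with Gm20547.

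The other members of the start of the pathways did not pass the test in the lower direction. C4b, which is nearly identical to C4a, was at 1308 ± 32.5 CPM (n = 3) in chow and 1396 ± 91.2 CPM (n = 6) in WD WT EV. The mannose-binding lectins Mbl1 and Mbl2 and their proteases Masp1 and Masp2 had log2 fold changes from -0.18 to 0.09. Among the regulators, Cfi (factor I, which cuts C3b and C4b) was called lower at -0.34 ± 0.09 (adjusted p = 0.011). C4bp and Serping1 (the C1 inhibitor) were not called, at 0.17 and -0.04.

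C1qb and C1qc were the members called higher on the Western diet. C1qb was at 32.9, 38.7 and 44.0 CPM in chow and 45.9 (lowest), 64.0 (median) and 69.0 CPM (highest) in WD WT EV, with no overlap. The log2 fold change was 0.74 ± 0.20 (adjusted p = 0.0103). C1qc was at 46.7, 48.8 and 63.1 CPM against 53.3, 73.8 and 80.3 CPM, with overlap (0.51 ± 0.18, adjusted p = 0.0472). The C1qc call was lost in 6 of 9 fits that left out 1 library and in 5 of 7 other settings, and that of C1qb in 2 and 4. C1qa was at 35.1, 38.0 and 43.8 CPM against 41.9, 49.2 and 53.0 CPM and was not called (0.37 ± 0.18, adjusted p = 0.136). Per length, C1qa over C1qb fell from 1.06 ± 0.0474 to 0.841 ± 0.0717. The exact permutation p was 0.0238, the smallest possible, and 0.0357 after the adjustment over 6 ratios. These ratios were chosen after the values were seen, which the adjustment does not cover. Of 8 Kupffer cell and macrophage markers, Cd5l and Cd68 were also called higher, and the list summed to 247 to 306 CPM in chow and 306 to 444 CPM in WD WT EV. The defining Kupffer markers Clec4f, Timd4 and Vsig4 were not called. Their part in the C1q values was not tested.

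Read by the ranges alone, 11 members were lower in all 6 Western diet libraries than in all 3 chow libraries, and C1qb was higher in all. Over all genes tested, 8.45% lay below without overlap and 7.65% above. Cfd was also higher in all 6, but passed the filter only through Western diet groups and is not counted here. The 11 were C2, C3, Hc, C8a, C8b, Cfi, F7, Kng1, Serpinc1, Serpind1 and Vtn. Kng1 (kininogen) was the one among them that was not called lower, at -0.30 ± 0.11 with an adjusted p of 0.0517.

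**Figure D2:**
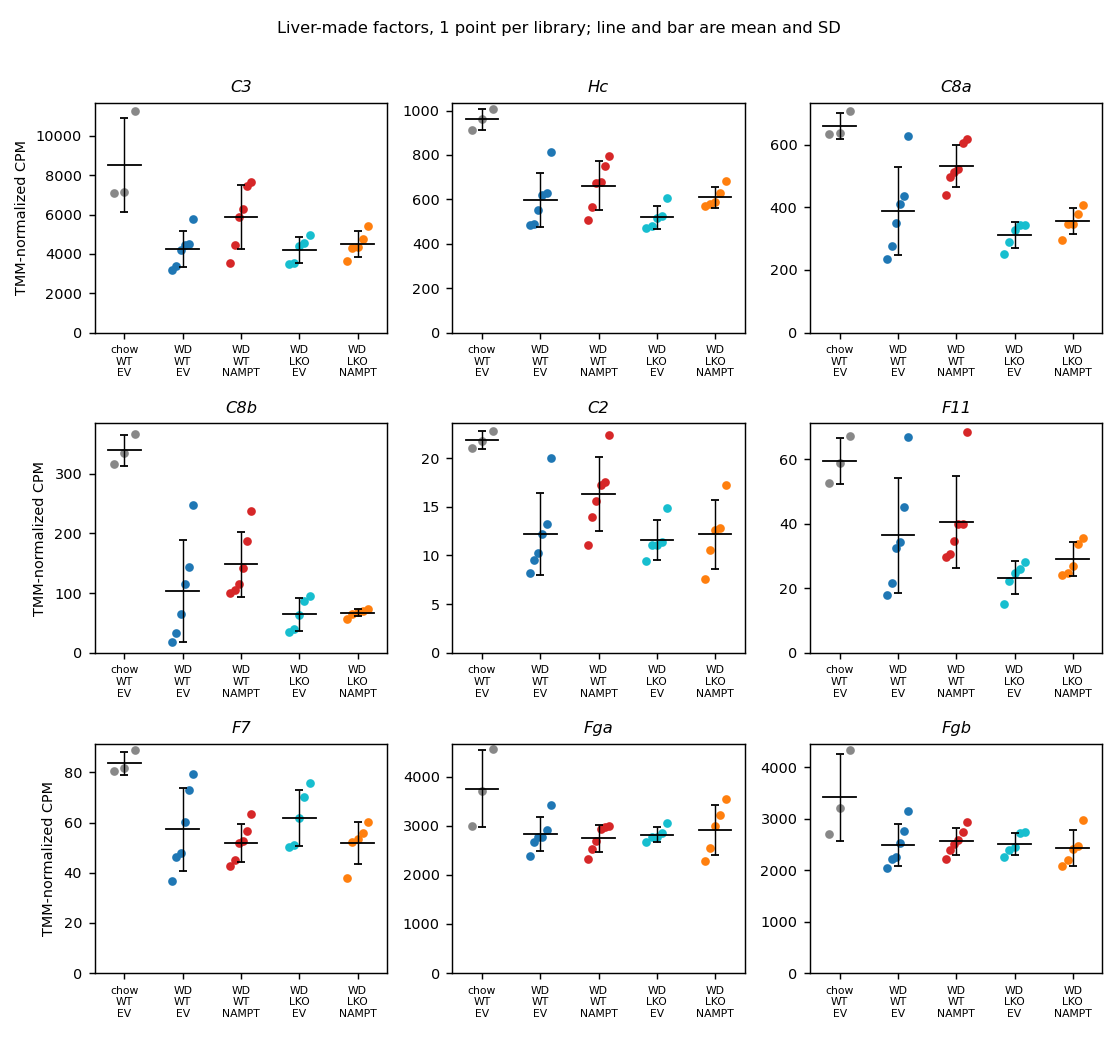
Normalized CPM of 9 hepatic members in every library, on linear axes from 0, with the mean (line) and SD (bar) of the 5 groups. C3, Hc, C8a, C8b, C2 and F7 have no overlap between chow WT EV and WD WT EV, while F11, Fga and Fgb do.

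Fibrinogen is built from 3 chains whose genes lie together at chr3:83007859-83049803 in GRCm38. All 3 were called lower on the Western diet by a similar amount. Fga was at 3003, 3710 and 4564 CPM in chow and at 2379 (lowest), 2773 (median) and 3432 CPM (highest) in WD WT EV. Fgb was at 2694, 3212 and 4344 CPM against 2039, 2394 and 3146 CPM, and Fgg at 2180, 2661 and 3266 CPM against 1628, 2045 and 2342 CPM. The ranges of each chain overlapped through chow replicate 1, the lowest of the chow libraries for all 3. The log2 fold changes were -0.33 ± 0.12 for Fga, -0.35 ± 0.13 for Fgb and -0.35 ± 0.12 for Fgg, with adjusted p of 0.0457, 0.048 and 0.0421. These calls lay near the threshold: each was lost in 5 of 7 other settings, and of 9 fits that left out 1 library Fga and Fgb lost it in 6 and Fgg in 5.

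The chains kept close ratios. Per length, Fga over Fgb was 0.542 ± 0.0258 in chow and 0.56 ± 0.0551 in WD WT EV, and it stayed between 0.454 and 0.644 in all 25 libraries. The log2 ratio differed by 0.04 between the diets, with an exact permutation p of 0.69. Fgg over Fgb was 0.837 ± 0.0419 and 0.85 ± 0.0968, with an exact permutation p of 0.881.

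Since the 3 chains kept close ratios, their promoters are shown from RefSeq (GRCm38.p6), from 250 bases before to 50 after each annotated start, 5′ to 3′ on the strand of the gene. Capitals mark matches, on either strand, to 3 motifs: the HNF1 core GTTAAT, the C/EBP motif TTGCNNAA and the interleukin-6 response core CTGGGAA. HNF1 and C/EBP proteins are transcription factors of hepatocytes, and interleukin-6 is the main inducer of the acute phase response. The starts are those of RefSeq, and for Fgb and Fgg they lie upstream of the Ensembl gene models given above. Fga is read at chr3:83025903-83026202 on the plus strand, Fgb at chr3:83049814-83050113 on the minus strand and Fgg at chr3:83007474-83007773 on the plus strand.
Fga: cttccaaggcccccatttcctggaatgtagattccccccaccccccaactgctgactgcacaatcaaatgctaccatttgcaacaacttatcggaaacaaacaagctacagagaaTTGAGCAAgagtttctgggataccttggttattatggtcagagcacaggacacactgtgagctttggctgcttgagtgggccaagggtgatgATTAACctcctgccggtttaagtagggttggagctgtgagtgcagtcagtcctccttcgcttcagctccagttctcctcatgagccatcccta
Fgb: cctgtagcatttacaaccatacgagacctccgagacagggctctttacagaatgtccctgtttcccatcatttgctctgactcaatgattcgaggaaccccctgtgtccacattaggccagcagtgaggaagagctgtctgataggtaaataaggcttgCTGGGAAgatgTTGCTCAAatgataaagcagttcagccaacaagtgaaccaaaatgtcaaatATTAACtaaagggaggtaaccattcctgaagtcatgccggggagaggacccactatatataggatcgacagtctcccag
Fgg: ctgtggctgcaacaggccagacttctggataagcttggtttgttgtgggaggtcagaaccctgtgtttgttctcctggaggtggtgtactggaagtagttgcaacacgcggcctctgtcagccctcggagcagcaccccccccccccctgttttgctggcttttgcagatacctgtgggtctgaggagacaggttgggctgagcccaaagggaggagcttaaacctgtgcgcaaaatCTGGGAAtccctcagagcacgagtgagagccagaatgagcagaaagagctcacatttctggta
The Fga window held an HNF1 core at positions -43 to -38 from the start and a C/EBP motif at -135 to -128. Fgb held all 3, the HNF1 core at -29 to -24, C/EBP at -80 to -73 and the interleukin-6 core at -91 to -85. Fgg held the interleukin-6 core at -13 to -7. Of 47 members, 35 had a promoter entry. The HNF1 core was in 10 of these (28.6%) and in 7.1% of 32851 promoters. C/EBP was in 9 of 35 (25.7%) and 10.8% of all, and the interleukin-6 core in 6 of 35 (17.1%) and 11.1% of all. These matches describe the letters and are not measured binding sites.

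Of the 9 single clotting factors tested, F11, F7, F10 and F2 were called lower. F11 (factor XI, of the contact pathway) was at 52.8, 58.8 and 67.1 CPM in chow and 17.8 (lowest), 33.5 (median) and 67.0 CPM (highest) in WD WT EV. One Western diet library, at 67.0 CPM, lay inside the chow range. The log2 fold change was -0.93 ± 0.22 (adjusted p = 0.00443). F7 (factor VII, which starts clotting with tissue factor) went from 80.5, 81.6 and 88.9 CPM to 36.6, 54.2 and 79.3 CPM without overlap (-0.57 ± 0.15, adjusted p = 0.0101). F2 (prothrombin) was at 1435, 1557 and 1680 CPM against 1053, 1295 and 1446 CPM, and the highest Western diet library passed the lowest chow library. Its log2 fold change was -0.29 ± 0.10 (adjusted p = 0.0327), a call lost in 6 of 7 other settings and in 5 of 9 fits that left out 1 library. F10 (factor X, which cleaves prothrombin) was lower by a similar amount, at -0.40 ± 0.11 (adjusted p = 0.014). The F11 and F7 calls were each lost in 3 of 7 other settings and in 2 of the 9 fits, and that of F10 in 2 and 1. The cofactor F5 and the factors F9, F12 and F13b were not called, with log2 fold changes from -0.25 to 0.05.

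Of 8 inhibitors and modulators, 4 were called lower. Serpind1 (heparin cofactor II) was called at -0.46 (adjusted p = 0.00977) and Serpinc1 (antithrombin) at -0.28 (adjusted p = 0.0224). The Serpinc1 call was lost in 4 of 7 other settings and 4 of 9 fits that left out 1 library, and that of Serpind1 in 3 and 2. Serpinf2, which inhibits plasmin and so restrains fibrinolysis, was called at -0.50 (adjusted p = 0.00523). Vtn, an adhesive protein that also blocks the terminal complex, fell from 2238, 2258 and 2692 CPM to 1243, 1493 and 2056 CPM without overlap (-0.56, adjusted p = 0.00183). Protein C (Proc), protein S (Pros1), Cpb2 and Hrg were not called, at -0.18, 0.04, -0.02 and -0.02. Plg, the precursor of plasmin, was lower at -0.39 ± 0.11 (adjusted p = 0.0173), a call lost in 5 of 7 other settings and in 2 of 9 fits that left out 1 library. Its activators had low counts: Plau (urokinase) was at 1.51 to 3.23 CPM in chow and 1.57 to 5.31 CPM in WD WT EV (adjusted p = 0.0607), and Plat at 0.0788 to 0.267 and 0.248 to 1.36 CPM, with no test given since it passed the filter only through the Western diet groups.

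Of the 8 hepatocyte markers, Tat and Cps1 were also called lower on the Western diet. Of the endothelial markers Lyve1 was called higher and Kdr lower, and the stellate cell marker Lrat was called higher. The summed hepatocyte markers ran from 75263 to 86246 CPM in chow and from 61889 to 77634 CPM in WD WT EV. The acute phase list moved otherwise: Saa1, Saa2 and Lcn2 of 11 were called higher and Itih3 lower. The part of these shifts in the member values was not tested.

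The cascades hold other genes, and 54 of a second list of 61 were tested. On the Western diet, 5 were called higher and 7 lower, with a median of 0.02. Over all genes, 10.1% were called higher and 12% lower, shares near those of this list. Anxa2 and S100a10, which form a surface receptor for plasminogen, rose by 2.13 ± 0.49 and 0.96 ± 0.19 (adjusted p = 0.0031 and 0.0011). Among the called genes, the largest drops were in F2rl2, a thrombin receptor, C1rb, a paralog of the C1r protease gene, and Cd55, which speeds decay of the convertases, at -1.10, -0.52 and -0.41 (adjusted p = 0.03, 0.035 and 0.0469).

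**Figure D3:**
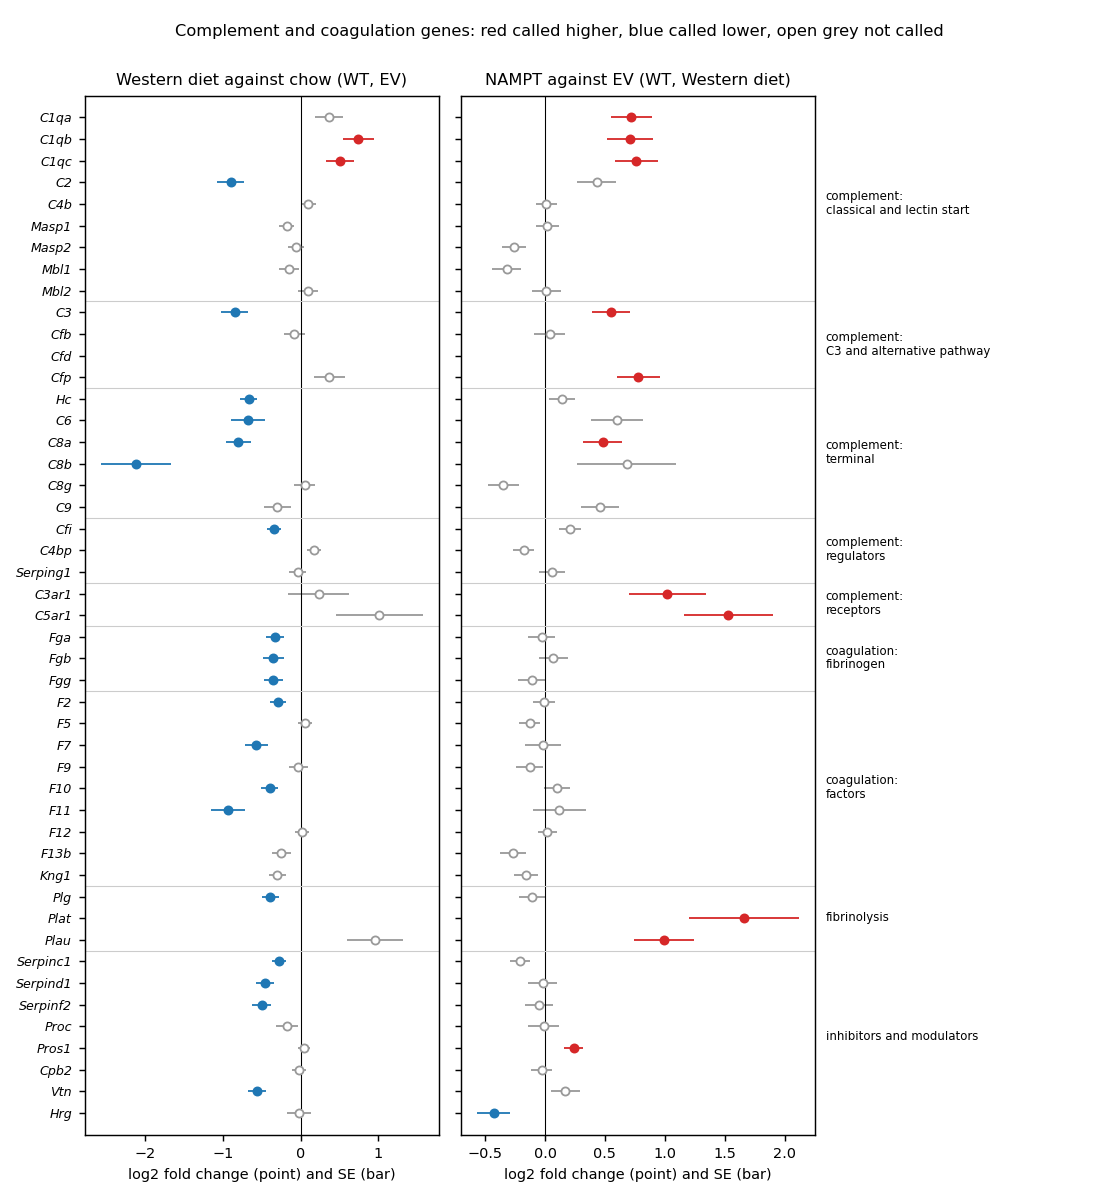
Log2 fold changes (points) with SE (bars) of the members by arm, for Western diet against chow on the left and NAMPT against EV in WT on the right, with different x axes. Filled red points were called higher, filled blue lower and open grey not called. Cfd on both sides and Plat on the left are left out, and both were under 1 CPM in chow. The right side holds no chow library, and Cfd was not called there (-2.61 ± 1.21, adjusted p = 0.147). Blue points take 7 of the 12 coagulation rows on the left, and red points sit mainly in C1q, Cfp, the receptors, Plat and Plau on the right.

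NAMPT was compared with EV in WT mice on the Western diet, with the same 6 EV libraries as in the diet comparison. Here 11 of 47 members were called higher and 1 lower, and 35 were not called. That is 23.4% higher and 2.13% lower, against 7.67% higher and 5.77% lower over all genes. The median log2 fold change was 0.02 over the members and 0 over all genes. The higher members were the 3 C1q chains, properdin, C3, C8a, both anaphylatoxin receptors, the plasminogen activators Plat and Plau, and Pros1. Hrg was the lower one. None of the 12 coagulation genes tested passed. No member separated the groups without overlap, where 0.37% of all genes lay above and 0.59% below.

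The calls depended on the libraries and on the test used. Leaving out 1 library gave counts from 0, without WD WT NAMPT replicate 3, to 17, without replicate 6. They were 3 without WD WT EV replicate 2, 5 without WD WT EV replicate 6 and 5 without WD WT NAMPT replicate 2. The edgeR quasi-likelihood test called 2 and the fit without quality weights 0, with 18 members at an unadjusted p under 0.05. The calls over all genes in these fits are not set beside the counts, so a change particular to the members is not shown. The 8 members with the largest increases were picked by this same comparison, so the counts that follow describe the libraries and are no further evidence. WD WT NAMPT replicates 1 to 4 were above all EV libraries for 8 of 8. Replicate 5 was above all EV libraries for 3, and replicate 6 for 0.

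C1q is a bundle of 3 chains encoded side by side at chr4:136880129-136898803. C1qa was at 41.9 (lowest), 49.2 (median) and 53.0 CPM (highest) in WD WT EV and 33.2, 81.1 and 105 CPM in WD WT NAMPT. C1qb went from 45.9, 64.0 and 69.0 CPM to 37.9, 102 and 138 CPM, and C1qc from 53.3, 73.8 and 80.3 CPM to 55.1, 129 and 157 CPM. The medians rose in each case, while the lowest NAMPT library stayed within or below the EV range. Their log2 fold changes were 0.72 ± 0.17, 0.71 ± 0.19 and 0.76 ± 0.18, with adjusted p of 0.0127, 0.0195 and 0.013. Among the 12 fits that left out 1 library, C1qa and C1qc each lost the call in 1 (without WD WT NAMPT replicate 3) and C1qb in 4, and among 7 other settings they lost it in 3, 3 and 5.

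The C1q promoters are shown beside those of fibrinogen, since C1qb and C1qc were called in the opposite direction on the Western diet. C1qa had no promoter entry. Capitals mark GAGGAA or its reverse TTCCTC, the box bound by PU.1, a factor of myeloid cells. C1qb is read at chr4:136886151-136886450 and C1qc at chr4:136892865-136893164, both on the minus strand of GRCm38.p6 (RefSeq), whose starts differ from those of the Ensembl models.
C1qb: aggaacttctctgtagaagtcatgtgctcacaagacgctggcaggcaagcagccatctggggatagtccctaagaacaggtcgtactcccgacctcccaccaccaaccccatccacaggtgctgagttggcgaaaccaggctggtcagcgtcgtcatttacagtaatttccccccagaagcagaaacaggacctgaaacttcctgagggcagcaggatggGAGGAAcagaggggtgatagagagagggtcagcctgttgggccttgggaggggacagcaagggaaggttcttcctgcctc
C1qc: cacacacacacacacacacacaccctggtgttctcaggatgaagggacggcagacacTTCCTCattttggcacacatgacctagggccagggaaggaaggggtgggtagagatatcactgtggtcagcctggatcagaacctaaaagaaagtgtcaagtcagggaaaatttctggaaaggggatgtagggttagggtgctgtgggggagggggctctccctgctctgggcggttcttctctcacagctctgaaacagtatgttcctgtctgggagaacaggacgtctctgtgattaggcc
The box lay at -30 to -25 in C1qb and, reversed, at -193 to -188 in C1qc. Neither window held the 3 motifs marked in fibrinogen. The box was in 5 of 35 members (14.3%), with uncapitalized matches in Fgb, and in 28.3% of all promoters.

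Cfp encodes properdin, which stabilizes the alternative convertase. It was at 19.1, 21.8 and 29.7 CPM (lowest, median, highest) in WD WT EV and 22.7, 37.6 and 61.2 CPM in WD WT NAMPT. The ranges overlapped, and the log2 fold change was 0.78 ± 0.18 (adjusted p = 0.0122). C3 was at 3198, 4326 and 5787 CPM against 3556, 6084 and 7666 CPM. This overlapping change was 0.55 ± 0.16 on the log2 scale (adjusted p = 0.0268), from an EV group that was below chow. C8a was also called higher, from 234, 379 and 628 CPM to 440.0, 517 and 619 CPM (0.48 ± 0.16, adjusted p = 0.0421). The C3 call was lost in 6 of 7 other settings and 5 of 12 fits that left out 1 library. That of C8a was lost in 5 and 8, and that of Cfp in 2 and 1. The remaining pore genes were not called by limma over all 25 libraries: C6 at 0.60 (adjusted p = 0.0643), C9 at 0.46 (0.0613), C8b at 0.68 (0.275), Hc at 0.14 (0.396) and C8g at -0.35 (0.0824). DESeq2 called C6 (0.65, adjusted p = 0.0434), and limma called C6 and C9 with library size alone and without WD WT EV replicate 8. C2 was at 0.43 (adjusted p = 0.075), and the lectins and their proteases were between -0.32 and 0.02.

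C5ar1 and C3ar1, the receptors through which C5a and C3a attract and activate myeloid cells, had the largest fold changes of the 12 called members after Plat. C5ar1 was at 1.46, 2.15 and 5.10 CPM in WD WT EV and 1.4, 7.44 and 16.9 CPM in WD WT NAMPT (1.53 ± 0.37, adjusted p = 0.0134). C3ar1 was at 3.96, 6.25 and 9.18 CPM against 4.89, 13.4 and 24.7 CPM (1.02 ± 0.32, adjusted p = 0.0351). Both groups overlapped at their lower ends. Of 7 other settings and 12 fits that left out 1 library, the C5ar1 call was lost in 4 and 2, and that of C3ar1 in 5 and 7.

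Plat, tissue plasminogen activator, had the largest log2 fold change of the 12 called members, 1.66 ± 0.46 (adjusted p = 0.0219), at very low levels. Its values were 0.248, 0.518 and 1.36 CPM in WD WT EV and 0.323, 1.96 and 3.11 CPM in WD WT NAMPT. The Plat call was lost in 5 of 7 other settings and in 4 of the 12 fits that left out 1 library. Plau was at 1.57, 3.29 and 5.31 CPM against 2.47, 7.18 and 11.2 CPM (0.99 ± 0.25, adjusted p = 0.0157). The Plau call was lost in 5 of 7 other settings and 2 of the 12 fits. In both genes the lower NAMPT libraries lay inside the EV range. Pros1, the cofactor of protein C, was at 46.8, 56.3 and 59.5 CPM against 47.2, 65.8 and 72.5 CPM (0.24 ± 0.08, adjusted p = 0.045), a call lost in 6 of 7 other settings and 9 of the 12 fits. Hrg, histidine-rich glycoprotein, was lower, at 734, 952 and 1225 CPM against 400.0, 724 and 997 CPM (-0.43 ± 0.14, adjusted p = 0.0446). The Hrg call was lost in all 7 other settings and in 6 of the 12 fits that left out 1 library, and with library size alone its value was -0.27.

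Fibrinogen and prothrombin were not called. Fga was at 2334 to 2993 CPM in WD WT NAMPT, Fgb at 2209 to 2929 CPM and Fgg at 1570 to 2040 CPM, all overlapping the EV ranges given above. Their log2 fold changes were -0.03, 0.07 and -0.11, with SE of 0.11 to 0.12. F2 was at 940.0 (lowest), 1226 (median) and 1391 CPM (highest), a log2 fold change of -0.01 ± 0.09. The signs of Fga, Fgg and F2 turned when only library size was used for scaling, which moved the median of all genes in this comparison from 0 to 0.16. The other clotting factors were between -0.27 and 0.12.

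**Figure D4:**
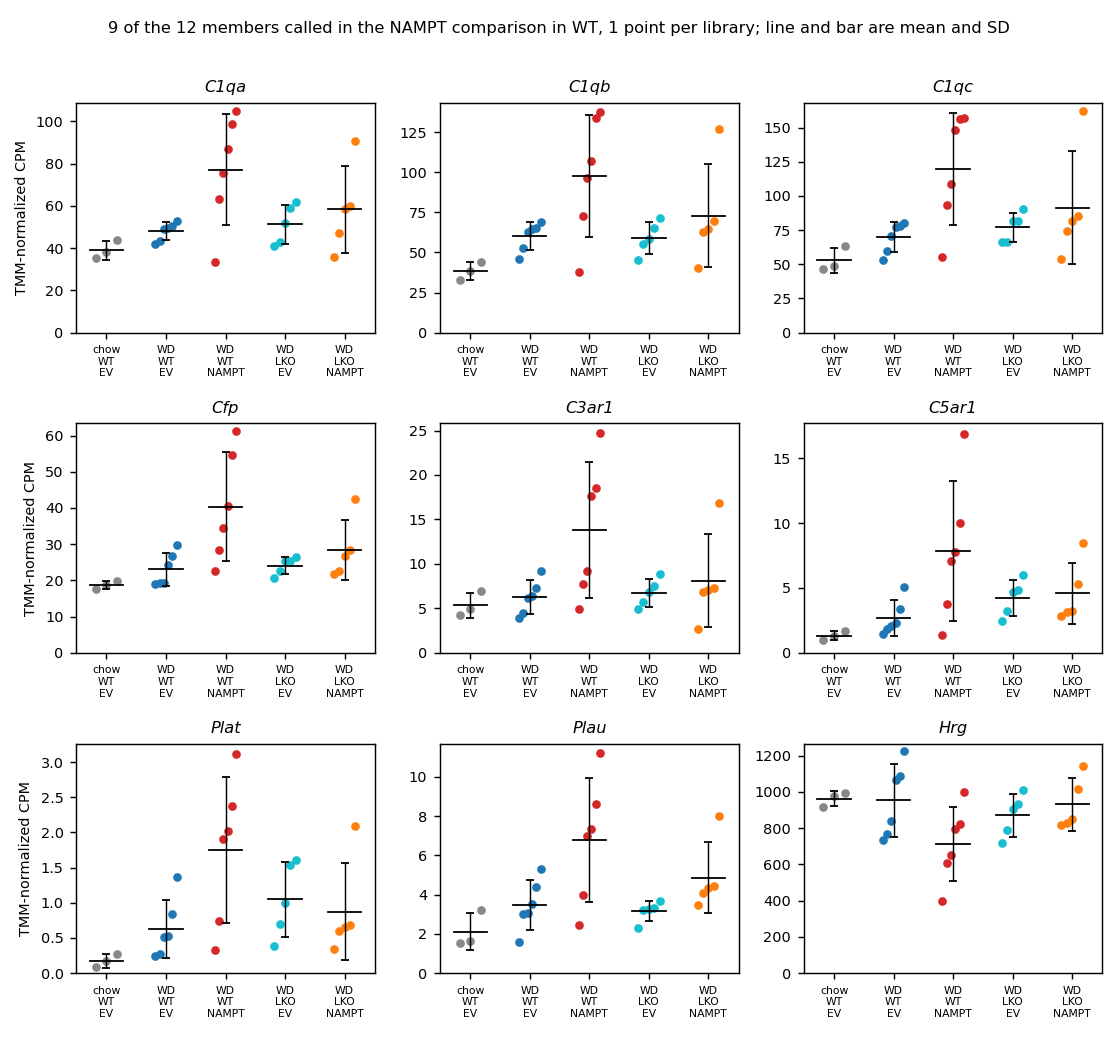
Normalized CPM of 9 of the 12 members called in the NAMPT comparison in WT, in every library, on linear axes from 0 with mean (line) and SD (bar). The WD WT NAMPT points (red) spread widely, with their lowest points inside or below the range of WD WT EV (dark blue), and in Hrg their lower points extend below it.

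Myeloid markers moved with these genes. Of 8 Kupffer cell and macrophage markers, 5 were called higher (Cd5l, Marco, Adgre1, Csf1r and Cd68), and the list summed to 306, 360 and 444 CPM (lowest, median, highest) in WD WT EV and 289, 640 and 811 CPM in WD WT NAMPT. Clec4f, Timd4 and Vsig4 were not called. Trem2 and Itgax of 6 markers of recruited or lipid-associated macrophages, and S100a9 and Csf3r of 4 tested neutrophil markers, were called higher. Of markers of other cell types, Asgr1 (hepatocyte) and Clec4g (sinusoidal endothelium) were called lower and Rgs5 (stellate cell) higher. The 6 neutrophil markers summed to 2.72 to 7.95 CPM in WD WT EV and 3.50 to 26.8 CPM in WD WT NAMPT. Among 11 acute phase genes, Saa1, Orm1, Orm2 and Hpx were called higher, and the sum had a median of 7771 CPM in WD WT EV and 12933 CPM in WD WT NAMPT. The part of these shifts in the member values was not tested.

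Of the 54 other cascade genes, 8 were called higher and 4 lower, with a median of -0.04. Over all genes, 7.67% were called higher and 5.77% lower. Itgam and Itgax, the alpha chains of complement receptors 3 and 4 on myeloid cells, rose by 1.87 ± 0.43 (adjusted p = 0.0122) and 2.11 ± 0.55 (adjusted p = 0.0174). F2rl1, a protease-activated receptor, was also among the 8. It was at 0.0825 to 1.01 CPM in WD WT EV and 0.323 to 3.34 CPM in WD WT NAMPT. It passed the filter on low counts only with WD WT NAMPT libraries, so its fold change and test are not given. Cd59a and Cd59b, which block assembly of the pore on host cells, were lower at -0.49 ± 0.12 and -0.73 ± 0.19 (adjusted p = 0.0137 and 0.0166). Tfpi2, a Kunitz-type protease inhibitor, was lower at -0.55 ± 0.17 (adjusted p = 0.0315).

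In mice labelled LKO, NAMPT was again compared with EV on the Western diet. No member was called by limma, and 2 had an unadjusted p under 0.05, against 9.63% of all genes. The edgeR and DESeq2 tests called 0 as well, with 1 member each under 0.05. Over all genes 0.00711% (1 gene) was called. The members' median was 0.05 and that of all genes 0.02.

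The C1q chains were at 41.1 to 61.7, 45.5 to 71.4 and 66.1 to 90.4 CPM for C1qa, C1qb and C1qc in WD LKO EV. In WD LKO NAMPT, replicates 1 to 5 of C1qa were at 90.9, 46.9, 35.7, 59.7 and 58.6 CPM. Replicate 1 was the one library above the EV range, and it was also the highest of its group for C1qb at 127 CPM and C1qc at 162 CPM. The log2 fold changes were 0.09 ± 0.17, 0.20 ± 0.20 and 0.09 ± 0.18. The 8 members that rose most in WT were picked with the same WD WT EV libraries. For these 8, replicate 1 lay above every WD WT EV library in 8 of 8, and replicates 4 and 5 in 3 each. Without NAMPT, WD LKO EV replicates 1, 3 and 2 did so in 5, 3 and 1. The Kupffer cell and macrophage list of WD LKO NAMPT replicate 1 summed to 632 CPM, the highest of its group.

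C3 was at 3506, 3546, 4425, 4553 and 4979 CPM in WD LKO EV and 3622, 4278, 4366, 4766 and 5431 CPM in WD LKO NAMPT. The ranges nearly coincided, and the log2 fold change was 0.14 ± 0.17 (adjusted p = 0.825). C9 was higher in all 5 NAMPT libraries, 301 to 394 CPM, than in all 5 EV libraries, 195 to 294 CPM, but was not called (0.55 ± 0.17, adjusted p = 0.246). Of all genes, 0.505% lay higher without overlap in this comparison. C6 had a like value, 0.53 ± 0.22 (adjusted p = 0.423). Fga, Fgb, Fgg and F2 were between -0.07 and 0.04. Plat was at -0.48 ± 0.48, C5ar1 at -0.05 ± 0.35, C3ar1 at -0.05 ± 0.35 and Plau at 0.47 ± 0.27.

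The difference between the NAMPT effects in LKO and WT was tested as an interaction. No member passed with limma, where 10 had an unadjusted p under 0.05, against 21.2% of all genes, and 0.00711% of all genes passed. The edgeR test gave 0 calls with 5 members under 0.05, and DESeq2 gave 0 with 5, where 21 members had no adjusted p. The smallest adjusted p were those of Plat, at -2.14 ± 0.66 (adjusted p = 0.0938), and C5ar1, at -1.57 ± 0.51 (adjusted p = 0.0993). Cfd had the largest value, of the opposite sign, at 4.23 ± 1.61 (adjusted p = 0.144), and C3ar1 was at -1.07 (adjusted p = 0.192). The C1q chains were at -0.63, -0.51 and -0.67 (adjusted p = 0.148, 0.28 and 0.148), and C3 at -0.42 (0.297). The members called in WT are not shown to respond differently in LKO. The count rose to 3 without WD WT NAMPT replicate 6 (C1qa, C5ar1 and Plat), to 3 without WD LKO NAMPT replicate 1 (C1qc, Cfd and Plat) and to 2 without WD WT NAMPT replicate 5 (C5ar1 and Plat).

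LKO and WT were compared directly under each vector. With EV, no member was called, 3 had an unadjusted p under 0.05, against 6.33% of all genes, and 0.00711% of all genes passed. The edgeR and DESeq2 tests called 0 with 3 members under 0.05 each. The 6 pore genes were all below 0 in log2 fold change, from -0.64 ± 0.20 for C6 (adjusted p = 0.551) to -0.12 for C8g, and the median of all 47 was -0.03. C6 was at 71.7 to 110.0 CPM in WD LKO EV and 63.5 to 250 CPM in WD WT EV, so its groups overlapped.

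With NAMPT, again no member was called by limma, while 7.96% of all genes passed. The edgeR test called 0 with 10 members under an unadjusted 0.05, and DESeq2 called C6 and C8a. Under limma 17 members had an unadjusted p under 0.05, against 28.6% of all genes, and the smallest adjusted p was 0.0555, for C6. C6 was at 99.4 to 138 CPM in WD LKO NAMPT and 159 to 285 CPM in WD WT NAMPT, with no overlap (-0.70 ± 0.23). C8a, at 296 to 407 against 440.0 to 619 CPM, and C8b, at 57.2 to 73.2 against 100.0 to 238 CPM, did not overlap either, and 0.604% of all genes lay lower in that way. Properdin was at -0.57 (adjusted p = 0.0563), C1qa at -0.53 (0.0598), C3 at -0.47 (0.0835) and Plat at -1.26 (0.0705). The macrophage markers Marco and Csf1r and the neutrophil marker Csf3r were called lower in this comparison. So were the hepatocyte marker Tat, the cholangiocyte marker Sox9 and the acute phase gene Itih3. Their part in the members' values was not tested. The count was 10 without WD WT NAMPT replicate 5, 10 without replicate 6, 8 without WD LKO NAMPT replicate 1, 4 without WD LKO NAMPT replicate 4 and 2 without WD WT NAMPT replicate 4. Of the 54 other cascade genes, Cd59b was called higher in LKO, and Itgam, Itgb2 and Clu lower, a share near the 7.96% of all genes.

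Cfd, which encodes factor D, the protease that activates factor B, had the fewest counts in chow. It had 1 or 2 counts in each chow library, that is 0.0413, 0.0788 and 0.0889 CPM. In WD WT EV it was at 0.923 (lowest), 32.2 (median) and 60.8 CPM (highest), all above chow. Cfd passed the filter only through the Western diet groups, so no fold of the diet is given for it. It stands in the counts of members tested and called on the diet, and that test is not read as a result.

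Within each Western diet group Cfd ranged widely. WD WT NAMPT replicates were at 0.153, 0.895, 3.34, 2.26, 74.9 and 8.39 CPM, and WD LKO EV replicates at 3.05, 4.61, 17.3, 2.08 and 10.6 CPM. WD LKO NAMPT replicates were at 0.801, 25.1, 52.2, 60.3 and 20.3 CPM. No comparison among these groups passed with limma over all 25 libraries. Without WD WT EV replicate 8 Cfd was called lower for NAMPT in WT (-3.19, adjusted p = 0.0431), and without WD LKO NAMPT replicate 1 the interaction passed (4.79, adjusted p = 0.0483). The 4 adipocyte markers Adipoq, Lep, Plin1 and Retn summed to 0 to 0.595 CPM in all libraries but WD LKO NAMPT replicate 3, at 3.61 CPM. They summed to 0.261 CPM in WD WT NAMPT replicate 5, and their part in the Cfd values was not tested.

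**Figure D5:**
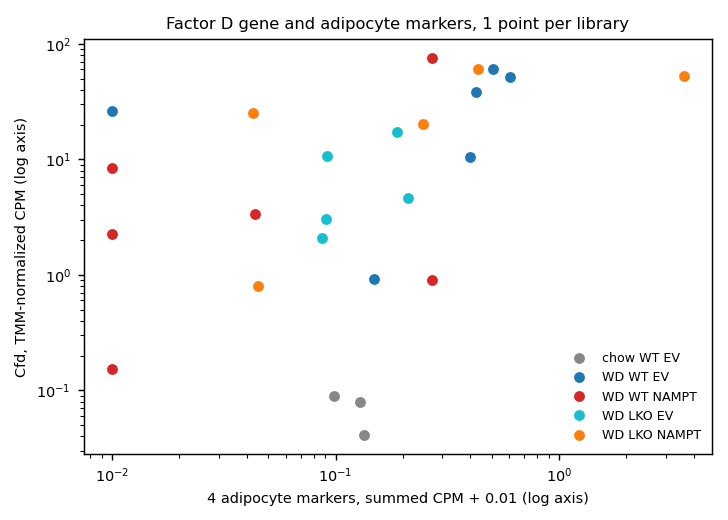
Cfd against the sum of 4 adipocyte markers in the 25 libraries, both in normalized CPM on log axes, with 0.01 added to the sum. Chow points lie below 0.1 CPM of Cfd. Western diet points spread from 0.153 to 74.9 CPM at marker sums of up to 0.595 CPM, except 1 library at 3.61.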

How the data were processed

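Liver RNA of 25 mice was measured by oligo-dT RNA sequencing. Submitters' notes name STAR 2.5.1a, featureCounts 1.4.6-p5 and GRCm38, and the use of strand is not stated. Raw counts were deposited for each gene, beside CPM and RPKM that the authors derived from these counts. Deposited CPM and RPKM were recomputed from the counts (largest relative deviation 5.92e-14), and only counts were used. Symbols came from the annotation (40254 of 41388 identifiers). The gene lists were chosen with earlier results of these data known.

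Genes above 1 CPM in at least 2 libraries were kept, 4 ribosomal RNA genes left out, and counts scaled by TMM (edgeR 4.0.16) before a limma 3.58.1 fit (voomWithQualityWeights, R 4.3.3) of the 5 group means over all 25 libraries. P-values were adjusted (Benjamini-Hochberg) over 14065 genes and called at 0.05 or less. Levels are TMM-normalized CPM. Shares are of raw counts. Python 3.11.15 was used for ratios and promoters. Every called member was named. Values were given for up to 8 called members of largest change in each direction and for C3, C1qa, C1qb, C1qc, Fga, Fgb, Fgg and F2. Of the other cascade genes, up to 3 called in each direction of largest change were named. A result that this rule would name is not reported here. Labels give 1 sample per library and no batch. P-values of the fit are of moderated tests that set differences of group means against the weighted spread of libraries within the 5 groups. Replicates differed beyond counting noise (smallest chi-square per degree of freedom 15.9). Alternatives were the edgeR quasi-likelihood test, DESeq2 1.42.0, no quality weights, library size alone, no filter, only the groups compared, a replicate block and leaving out each library.

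Masp2 (1817 of 3307 exonic bases) overlaps Tardbp on the other strand, so their reads may not be separable. Kng1 has a close paralog, Kng2.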

Additional observations from a re-analysis of the deposited data

Results flagged for a closer look

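The highest or lowest library stood apart from the rest of its group (Dixon's test) in 7 of 120 group tests over 30 members, and chance gives about 1 in 20. In WD LKO EV, C6 of replicate 1 was at 110.0 CPM (others 71.7 to 82.6), Cfi of replicate 4 at 461 CPM (others 387 to 402) and Pros1 of replicate 5 at 47.9 CPM (others 56.6 to 57.4). In WD WT NAMPT, Cfd of replicate 5 was at 74.9 CPM (others 0.153 to 8.39) and F11 of replicate 6 at 68.5 CPM (others 29.7 to 40.0). In WD LKO NAMPT, replicate 1 was the highest for Plat, at 2.09 CPM (others 0.348 to 0.678), and for Plau, at 8.01 CPM (others 3.46 to 4.44). No cause was tested.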

How the results depend on the processing

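Of the 21 members called on the diet, C2, C3, Hc and C8a kept the call in all settings, and no called member changed sign in the diet comparison or in the NAMPT comparison in WT. The diet count of 21 became 10 with the edgeR quasi-likelihood test, 9 without quality weights, 15 with DESeq2, 23 with library size alone and 14 each without the filter, with only the groups compared and with the replicate block (edgeR, DESeq2 and the block each counted Cfd), and leaving out 1 library gave 5 to 21. The 12 calls for NAMPT in WT became 2 with edgeR, 9 with DESeq2, 16 with library size alone, 0 without quality weights, 3 without the filter, 2 with only the groups compared and 5 with the replicate block (2 of the 12, with C6, C9 and C8b added, and C8b at 2.1 in place of 0.68 and Plat at 0.91 in place of 1.66), and 0 to 17 with 1 library left out. For genotype with NAMPT, the count of 0 became 2 with DESeq2 and 2 with library size alone, and 0 to 10 with 1 library left out. For genotype with EV it became 1 (Cfd) with the block, and for the interaction 0 to 3 with 1 library left out. NAMPT in LKO gave 0 in every setting. The calls over all genes in these settings are not set beside the counts. Cfd passed the filter only through the Western diet groups, so its diet calls are not read as a result. The cause of the changes in count was not tested.

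Same-numbered libraries were not shown to pair: no comparison had every correlation of deviations over 0.1 (3 of 4 for NAMPT in WT), and libraries that correlated best with their own number were 3 of 8, 2 of 10, 3 of 6 and 1 of 10 for NAMPT in WT, NAMPT in LKO, genotype with EV and genotype with NAMPT. Signs changed only in uncalled log2 fold changes. For NAMPT in WT with library size alone Fga became 0.11, Fgg 0.03 and F2 0.14, and with the replicate block 0.19, 0.13 and 0. Leaving out 1 library gave -0.08 to 0.02 for Fga, 0 to 0.13 for Fgb and -0.08 to 0.05 for F2. For NAMPT in LKO, C3ar1 became 0.27 with edgeR, 0.27 with DESeq2, 0.08 without weights, 0.03 without the filter and 0.25 with the block (-0.22 to 0.21 with 1 library left out). C5ar1 became 0.12, 0.11, 0.08, 0.06 and 0.04 in the same settings (-0.21 to 0.12). C1qa ran from 0 to 0.24, C1qc from -0.03 to 0.21 and Hrg from -0.01 to 0.11 with 1 library left out. For NAMPT in WT, Hrg was -0.15 with the block. Library size alone moved the median of all genes from 0 to 0.16 for NAMPT in WT, from -0.01 to -0.12 for genotype with NAMPT and from -0.01 to -0.15 for the interaction. Cfd and Plat were limited by depth in chow.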
